A study of Mus musculus with 3 samples.

Results

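The transcripts followed here are 8 genes of macrophage identity, Spi1, Cebpa, Cebpb, Cebpd, Runx1, Cd68, Lyz2 and Mertk, chosen by name out of 36870 gene names on the arrays. They were read by 13 of the 56605 probes. Cd68 and Runx1 had 3 probes each, Lyz2 had 2, and each of the other members had 1. All 13 probes were well above background on all 3 arrays, and none of their spots was marked as an outlier or saturated. RNA came from RAW264.7, a mouse macrophage line transformed by Abelson leukemia virus, and the labels name no genetic change in any group. In the LPS group the cells received lipopolysaccharide, the agonist of TLR4, for 3 h. In the LOC1 + LPS and LOC3 + LPS groups the cells met Lactiplantibacillus plantarum LOC1 or LOC3, both isolated from tea leaves, before the same LPS stimulation, and the length of this pre-treatment and the LPS dose differ within the sources. Each group was 1 array of a single transformed line, so no SD, test or p-value between conditions can be given, and each array reads a whole culture, in which fewer cells of a kind and less RNA per cell cannot be told apart.

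PU.1, encoded by Spi1, is the Ets-family factor that directs progenitors to the macrophage fate and keeps macrophage genes open. It works with the C/EBP leucine zipper factors and with Runx1 at many of the same enhancers. C/EBPα acts mainly during differentiation, while C/EBPβ and C/EBPδ are the forms that inflammatory stimuli raise and that help drive cytokine and acute-phase genes. Cd68 and Lyz2 are downstream identity genes, for a lysosomal glycoprotein and for the lysozyme of myeloid cells. Mertk encodes a receptor tyrosine kinase through which macrophages recognise and engulf dying cells.

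The letters of 3 probes are printed here: the single Spi1 probe, the Lyz2 probe near the 5′ end of its transcript, which differed from the other Lyz2 probe, and 1 of the Cd68 probes. Positions of probes refer to mm9, as the scanner files give them, the base is the first matched base of the transcript, and the letters are given as in those files with no part in capitals.
Spi1, base 394: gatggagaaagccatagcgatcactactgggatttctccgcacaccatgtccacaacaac
Lyz2, base 94: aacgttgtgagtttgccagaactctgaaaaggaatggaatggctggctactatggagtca
Cd68, base 834: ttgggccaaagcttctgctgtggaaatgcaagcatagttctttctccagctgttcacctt
The Spi1 probe matched chr2:90939665-90953452, a span of 13788 bases for a probe of 60, so it crosses an exon junction and reads spliced transcript. The Lyz2 probe lay at chr10:116719175-116719234 and the Cd68 probe at chr11:69478314-69478373.

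Promoters of 4 members are shown, those of the identity genes Cd68, Lyz2 and Mertk and of Cebpb, and were searched for the letters of the binding motifs of these factors. Each is the RefSeq window of 300 bases on GRCm38.p6 around the start site, written along the gene, with motif matches in capitals. The motifs searched, on both strands, were TTGCNNAA for C/EBP, GAGGAA for Ets factors such as PU.1, TGTGGT for Runx, TGACGTCA for CRE, TATAAA for the TATA box and CCGCCC for the GC box, and no 2 of these motifs share a match in the windows shown.
Cd68, chr11:69666121-69666420, minus strand: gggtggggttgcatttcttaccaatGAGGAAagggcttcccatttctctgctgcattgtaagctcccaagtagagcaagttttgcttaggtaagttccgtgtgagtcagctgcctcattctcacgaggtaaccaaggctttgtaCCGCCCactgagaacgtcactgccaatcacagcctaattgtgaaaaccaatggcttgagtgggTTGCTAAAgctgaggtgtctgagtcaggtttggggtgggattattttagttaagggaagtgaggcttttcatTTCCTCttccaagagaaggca
Lyz2, chr10:117282223-117282522, minus strand: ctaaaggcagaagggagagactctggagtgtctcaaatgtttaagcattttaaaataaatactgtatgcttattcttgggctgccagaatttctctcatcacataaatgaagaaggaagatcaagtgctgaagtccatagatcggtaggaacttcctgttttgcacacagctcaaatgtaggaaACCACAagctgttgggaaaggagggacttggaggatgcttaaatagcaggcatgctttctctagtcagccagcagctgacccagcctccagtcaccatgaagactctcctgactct
Cebpb, chr2:167688665-167688964, plus strand: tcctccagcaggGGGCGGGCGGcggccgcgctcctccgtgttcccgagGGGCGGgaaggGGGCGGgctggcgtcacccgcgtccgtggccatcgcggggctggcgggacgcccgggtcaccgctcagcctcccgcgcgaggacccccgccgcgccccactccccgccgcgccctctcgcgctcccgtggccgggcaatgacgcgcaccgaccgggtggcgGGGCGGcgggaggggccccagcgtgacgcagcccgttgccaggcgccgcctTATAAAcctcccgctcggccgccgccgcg
Mertk, chr2:128698665-128698964, plus strand: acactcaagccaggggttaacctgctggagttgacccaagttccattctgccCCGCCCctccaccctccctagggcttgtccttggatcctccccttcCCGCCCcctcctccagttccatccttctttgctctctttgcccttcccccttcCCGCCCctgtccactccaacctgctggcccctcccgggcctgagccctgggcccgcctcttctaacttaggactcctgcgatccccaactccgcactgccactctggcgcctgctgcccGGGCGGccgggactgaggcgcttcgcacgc
In the Cd68 window the letters of the C/EBP motif stood at -43 to -36 from the start site, those of Ets at -225 to -220 and, on the other strand, at 29 to 34, and a GC box at -106 to -101. The Lyz2 window held a single match, of Runx, at -66 to -61. Cebpb had 5 GC box matches, of which those at -238 to -233 and -234 to -229 overlap, and a TATA box at 21 to 26, and Mertk had 4 GC boxes, so neither window held the C/EBP, Ets or Runx letters. Of the windows not shown, the Runx1 ones held an Ets match at -46 to -41 of 1 start site and Runx matches at 28 to 33 and 36 to 41 of the other, and the Cebpa window a TATA box at -30 to -25. Of 32851 promoter windows in the table, 10.8% held the C/EBP letters, 28.3% the Ets letters, 16.8% those of Runx, 1.79% CRE, 13.6% the TATA box and 35.7% the GC box. The table held windows for 6 of the 8 members, and none for Spi1 and Cebpd. A match describes letters only.

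In the ratios to unchallenged macrophages that the authors deposited, which leave out values under 2-fold, Cebpd, Cebpb, Spi1 and Runx1 were higher with LPS and Cebpa was lower. Thus 5 of the 8 members had a probe listed with LPS, 4 higher and 1 lower, where 22.7% of genes detected on the LPS array had one, 13.6% higher and 9.11% lower. By probes it was 5 of 13, against 13.4% of all probes, 7.08% higher and 6.31% lower. Only 3 members were past 3-fold, Cebpd, Cebpb and Cebpa.

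The C/EBP genes held both directions. Cebpd, whose product is a classical LPS-induced factor, had a deposited log2 ratio of 3.22 with LPS, or 9.31-fold. It stood at 2.82 with LOC1 + LPS and at 3.27 with LOC3 + LPS. Cebpb was listed at 1.84 with LPS, 1.59 with LOC1 + LPS and 1.61 with LOC3 + LPS, so each array lay over 2-fold above unchallenged cells. Cebpa ran the other way, at -1.71 with LPS, 3.28-fold lower than in unchallenged cells, and at -1.94 with each strain. The intensity that these ratios imply for unchallenged cells, on the scale of the LPS array, was 5547 for Cebpd, 20463 for Cebpb and 332 for Cebpa.

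Spi1 was listed at 1.39 with LPS, 2.62-fold, and was left blank with both strains, where its value rebuilt from the array intensities was 0.90 with LOC1 and 0.97 with LOC3. Runx1, the partner factor of early hematopoiesis, was listed through the probe at base 277 alone, at 1.18 with LPS, with rebuilt values of 0.80 and 0.91 under LOC1 and LOC3. In both genes the listed value and the blanks lie close to the 2-fold limit on either side of it, so the blank does not by itself mark a change of direction. The Lyz2 probe at base 94 was listed with LOC1 alone, at -1.23, and its rebuilt values were -0.53 with LPS and -0.94 with LOC3. Cd68 and Mertk had no listed probe in any column, and nothing is drawn from that. With 1 reference and 1 array per column, these ratios have no replicate error.

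**Figure D1:**
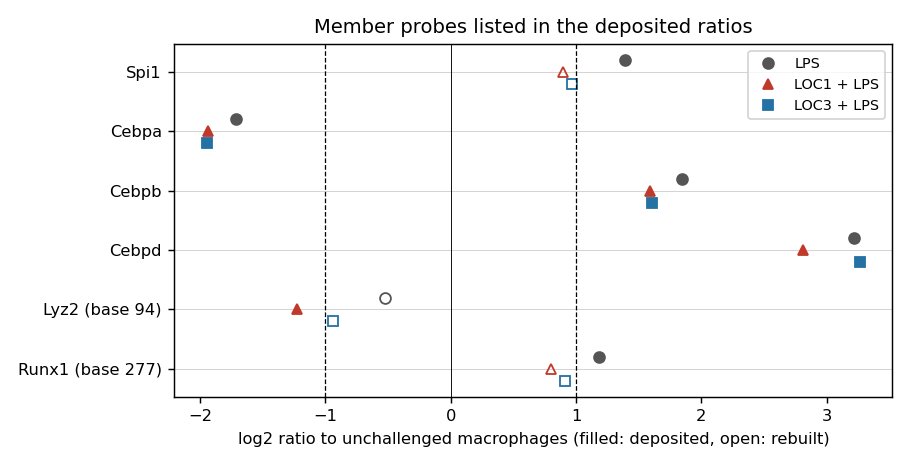
Log2 ratio to unchallenged macrophages (horizontal axis) of the 6 member probes listed in the deposited table, for the LPS, LOC1 + LPS and LOC3 + LPS arrays. Filled symbols are deposited values, open symbols were rebuilt from the arrays, and dashed lines mark 2-fold. Cebpd lay farthest above 0, between 2.82 and 3.27, and Cebpa farthest below, at -1.94 with either strain.

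Between the arrays, levels are log2 intensities relative to each array's 75th percentile, and a member's difference is that of its brightest probe. None of the 8 members was at least 2-fold apart between LOC1 + LPS and LPS, between LOC3 + LPS and LPS, or between the strains. Of all genes tested with LOC1, 6.3% were past 2-fold, 2.49% higher and 3.81% lower. With LOC3 it was 6.18%, 3% higher and 3.18% lower, and between the strains 2.66%, with 0.799% higher and 1.87% lower under LOC1. Smaller differences were read against the standard error that the scanner software gives each spot, which was 0.20 to 0.21 on the log2 scale for a difference from LPS of every member probe except Cebpa, with 0.22 with LOC1 and 0.23 with LOC3. This error covers the measurement and leaves out the variation between cultures. Past 2 such errors lay 4 members with LOC1, Mertk higher and Spi1, Cebpd and Runx1 lower, where 24.3% of genes were past that limit, 11.1% higher and 13.2% lower. With LOC3 there were 2, Mertk higher and Spi1 lower, against 22% of genes, 10.6% higher and 11.3% lower. The limit of 2 errors was added after the data were seen.

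The balance of directions moved with the scaling. When arrays were scaled by their medians, the median difference of all genes became 0.22 with LOC1 and 0.20 with LOC3, and the members past 2 errors were then 2 higher, Cd68 and Mertk, and 0 lower with either strain. Relative to all genes the members keep their order under any such shift, and the differences below are relative to the 75th percentile.

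**Figure D2:**
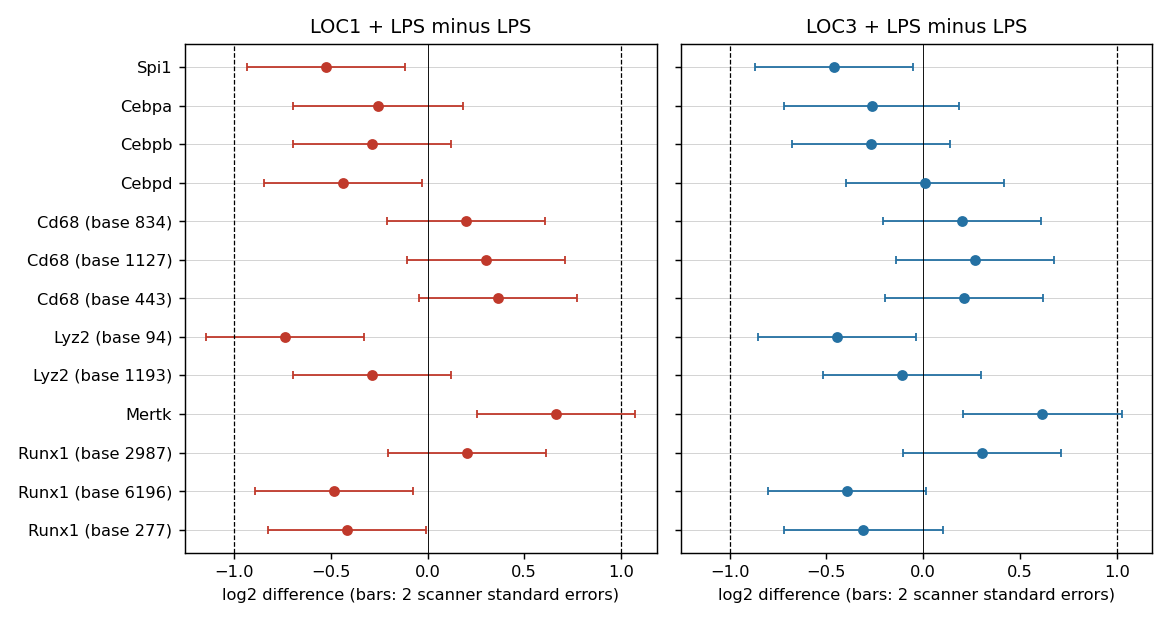
Log2 difference from LPS (horizontal axis) of each of the 13 member probes with LOC1 (left) and LOC3 (right), 1 array per group. Bars are 2 standard errors of the scanner's error model, dashed lines mark 2-fold, and labels give the transcript base where a gene has several probes. Mertk lay highest with both strains, at 0.66 and 0.62, and the Lyz2 probe at base 94 lowest with LOC1, at -0.73.

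For Spi1 the LPS array gave an intensity of 2641, the LOC1 + LPS array 1699 and the LOC3 + LPS array 1786. The LPS array was the high one and the strain arrays were close to each other. The log2 difference from LPS was -0.52 with LOC1 and -0.46 with LOC3, or 30.4% and 27.3% lower after scaling, beyond 2 standard errors of 0.20 with both. Among genes well above background on both arrays, 11.2% lay lower than Spi1 with LOC1 and 11.6% with LOC3. Over all alternative settings the difference stayed below 0, from -0.59 to -0.31 with LOC1 and from -0.54 to -0.28 with LOC3.

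Runx1 was read by 3 probes that disagreed. The brightest, at base 6196 (chr16:92602576-92602635), read 4938 on the LPS array, 3264 under LOC1 and 3493 under LOC3, which is -0.48 and -0.40 on the log2 scale. The probe at base 277 (chr16:92697238-92697297) followed it, with intensities of 383, 265 and 287 and differences of -0.42 and -0.31. The probe at base 2987 (chr16:92605785-92605844) went the other way, with 2336, 2490 and 2687 and differences of 0.20 and 0.31, within 2 standard errors. The first 2 of these probes were past 2 errors with LOC1 and neither was with LOC3. Each probe kept its sign under each scaling and background setting, so the direction of Runx1 depends on the probe. Which transcripts each probe reads was not tested. Cbfb, the non-DNA-binding partner of Runx1, had intensities of 16583, 12526 and 12862 and differences of -0.29 and -0.26, within 2 standard errors.

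Cebpa was dim, reading 101 on the LPS array, 78.5 under LOC1 and 78.4 under LOC3. Its probe lay at chr7:35906517-35906576. The log2 differences of -0.26 and -0.27 were within 2 standard errors of 0.22 and 0.23, and no larger than the technical SD of 0.29 to 0.31 among repeatedly printed probes of like intensity. No difference of Cebpa between these arrays was therefore detectable at this signal, which lay at -2.45 relative to the 75th percentile on the LPS array.

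Cebpb was bright, at 73378 with LPS, 55567 with LOC1 and 56640 with LOC3, from a probe at chr2:167515828-167515887. Both strain arrays were lower than LPS, by log2 differences of -0.29 and -0.27, within 2 scanner errors of 0.20 but well over the technical SD of 0.05 of probes of like intensity. Such an SD covers spot noise alone, and under median scaling the differences of Cebpb from LPS were -0.07 with LOC1 and -0.09 with LOC3. The strain arrays were almost level, at -0.02 for LOC1 against LOC3, a value that turned positive under median scaling and quantile normalization.

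Cebpd had the largest difference between the strains among the members. The probe at chr16:15888459-15888518 read an intensity of 51670 on the LPS array, 35300 under LOC1 and 48374 under LOC3. After scaling, LOC3 stood level with LPS and LOC1 was alone at the low end. The log2 difference from LPS was -0.44 with LOC1, past 2 standard errors, and 0.01 with LOC3. Directly between the strains, LOC1 was lower by -0.45 with a standard error of 0.20, so Cebpd was the 1 of 8 members past 2 errors there, where 3.95% of genes were, 1.58% higher and 2.37% lower. Of 17515 genes well above background on both strain arrays, 2.69% lay lower than Cebpd and 4.77% were at least as far from 0. Under quantile normalization the difference between strains was -0.39, under the limit of 2 errors, and the LOC3 difference from LPS ran from -0.13 to 0.19 over the settings.

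**Figure D3:**
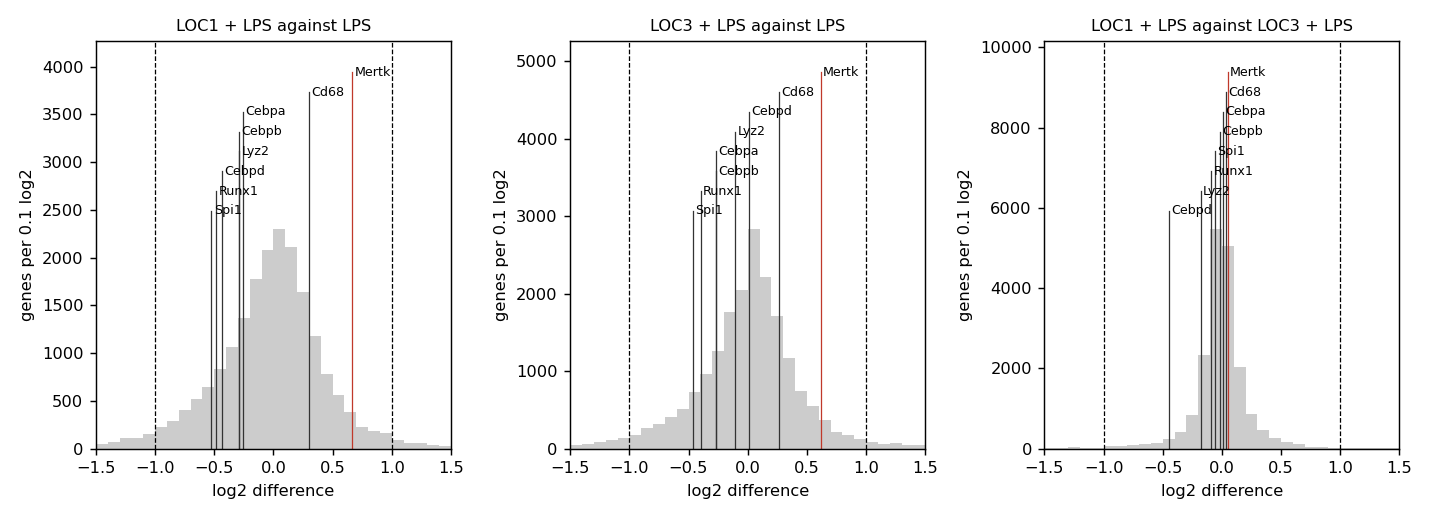
Number of genes per 0.1 of log2 difference (vertical axis) for LOC1 + LPS against LPS, LOC3 + LPS against LPS and LOC1 + LPS against LOC3 + LPS, in genes well above background on both arrays, with a line at each member's brightest probe. Dashed lines mark 2-fold, and line heights only separate the names. Mertk stands in the upper tail from LPS, with 5.06% of genes above it with LOC1, and Cebpd in the lower tail between the strains, with 2.69% below it. These percentages are of genes well above background on both arrays.

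The identity genes Cd68 and Lyz2 were among the bright probes of the arrays. Cd68 had 47720 with LPS, 54425 with LOC1 and 53426 with LOC3 for the brightest probe, at base 1127 (chr11:69477775-69477834). At base 834 it had 13066, 13873 and 13982, and at base 443 (chr11:69478979-69479038) 2248, 2677 and 2420. All 3 probes were higher than LPS on both strain arrays. The differences were 0.30, 0.20 and 0.36 with LOC1 and 0.27, 0.20 and 0.21 with LOC3, each within 2 standard errors, and they stayed above 0 under each scaling and background setting.

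Lyz2 lay below LPS with LOC1 at both of its probes. The brightest, at base 1193 (chr10:116714450-116714509), read 244528 on the LPS array, 185159 under LOC1 and 211178 under LOC3, and its differences of -0.29 and -0.11 were within 2 standard errors. The probe at base 94 had 17626, 9799 and 12029, and its differences of -0.73 and -0.45 were past 2 errors with both strains, though with LOC3 its value was -0.26, within 2 errors, under median scaling. The order of the arrays was LPS, LOC3 and LOC1 at both probes, and the size of the difference depended on the probe. With median scaling the LOC3 difference of the brightest probe became 0.08. Lyz1, a near-identical copy next to Lyz2, had 33328 with LPS, 29444 with LOC1 and 31166 with LOC3 and differences of -0.07 and 0.01. How far the probes of the copies take up each other's transcripts was not tested.

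Mertk had the largest differences from LPS among the members. Its probe (chr2:128627867-128627924) read an intensity of 575 on the LPS array, 844 under LOC1 and 821 under LOC3. Both strain arrays were higher, by 58.5% and 53.3% after scaling. The log2 differences were 0.66 and 0.62, each with a standard error of 0.20, and the technical SD, from 5 repeatedly printed probes, was 0.14 and 0.12. With LOC1, 5.06% of 18185 genes lay higher than Mertk, and with LOC3 5.64% of 17530. From setting to setting the LOC1 value ran from 0.60 to 0.88 and the LOC3 value from 0.53 to 0.80. Between the strains the difference was 0.05. Jmjd1c, Oas2, H2-T23, Lgals8 and a transcript with no gene symbol on the array lay nearest to Mertk by the distance between the pairs of differences, all at 0.01 from it over the 2 comparisons. In all, 259 of 17404 genes lay within 0.1 of it.

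**Figure D4:**
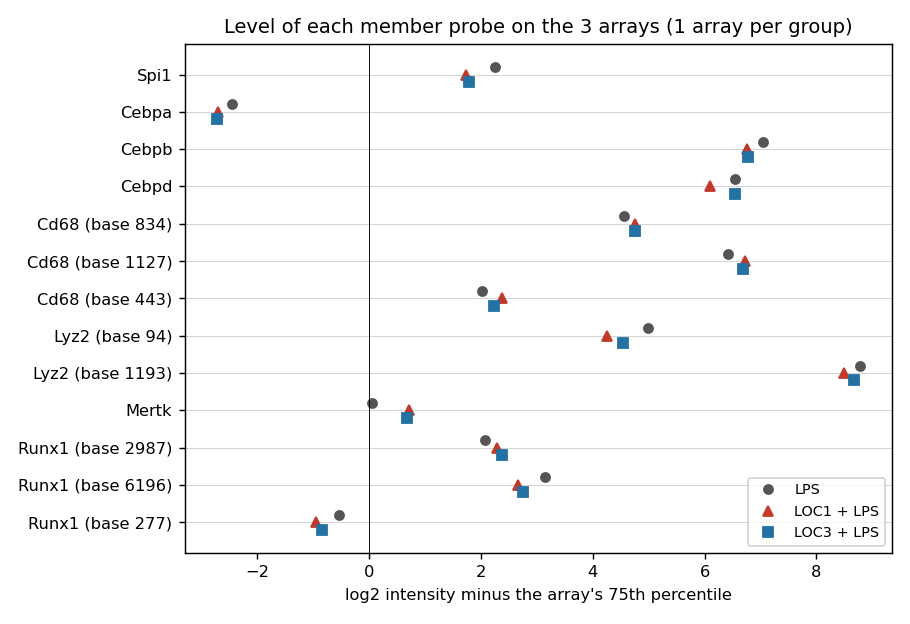
Log2 intensity relative to the 75th percentile of that array (horizontal axis) of each member probe on the LPS, LOC1 + LPS and LOC3 + LPS arrays, 1 array per group. Probes of a gene differ in brightness, so rows are not comparable with each other. Within rows the arrays lie close together, and Cebpa at -2.45 with LPS lies farthest below the percentile.

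The median difference of the 8 members was -0.29 with LOC1 and -0.19 with LOC3, beside 0.0013 and 0.015 for all genes tested. By probes, 5 were higher and 8 lower than LPS with LOC1, and 6 higher and 7 lower with LOC3. Both comparisons share the LPS array. Between the strains the members' median was -0.04, beside -0.0078 for all genes.

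Around the members, 69 genes in 4 lists were read in the same way. Among 7 detected genes of the C/EBP family and its regulators, out of 8, 2 were at least 2-fold higher and 1 lower with LOC1, and 1 higher and 1 lower with LOC3. Trib1 was the lower one. It encodes the pseudokinase that brings C/EBPα to a ubiquitin ligase for degradation, and its brightest probe had 3364 with LPS, 941 with LOC1 and 1350 with LOC3. The log2 differences were -1.73 and -1.21, and another probe gave -2.21 and -1.85, while a dim probe, at 23.4, 34.9 and 24.2, gave 0.69 and 0.16. As the mean of its probes Trib1 was at -1.08 and -0.97.

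The higher ones were stress genes. Ddit3 encodes CHOP, which pairs with other C/EBP factors and keeps them from their usual sites. Its brightest probe had 782 with LPS, 2259 with LOC1 and 1940 with LOC3, differences of 1.64 and 1.42, and its other probe, at 266, 265 and 235, gave 0.10 and -0.07. The mean of the Ddit3 probes was under 2-fold, at 0.87 and 0.67. Trib3, a pseudokinase induced by the same stress response, had 34874, 66642 and 60116 and was at 1.05 with LOC1 and 0.89 with LOC3. With LOC3 it passed 2-fold under median scaling, at 1.07. Quantile normalization took Trib3 with LOC1 under 2-fold, as did the percentile over probes detected on all arrays, at 0.98. Cebpg, a C/EBP protein that lacks an activation domain of its own, had 1823, 2485 and 2477 and stayed under 2-fold at 0.56 and 0.55. The median of this list was 0.42 with LOC1 and 0.43 with LOC3.

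Of 19 myeloid lineage factors, 16 were tested with LOC1 and 15 with LOC3, and Gfi1b alone was past 2-fold, higher with both. Gfi1b, a repressor known from erythroid and megakaryocytic cells, had 37.1 with LPS, 166 with LOC1 and 190 with LOC3, differences of 2.27 and 2.46, or 1.23 and 1.35 under normexp background correction. With median scaling Klf4, a factor of monocyte differentiation, passed 2-fold as well, at 1.01 with LOC1 and 1.03 with LOC3. The median of the list was 0.04 with LOC1 and 0.05 with LOC3, but -0.21 and -0.20 by the mean of the detected probes.

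Several genes of the pathway in which Mertk works read lower than with LPS. Of 18 genes of TAM receptors, their ligands and the clearance of dying cells, 0 were 2-fold higher and 3 lower with each strain, and the list's median was -0.37 with LOC1 and -0.39 with LOC3. The median depended on the processing. Under normexp background correction it was -0.11 with LOC1 and -0.07 with LOC3, with 2 genes lower with each strain. Median scaling put it at -0.15 and -0.20. Adgrb1, a receptor for phosphatidylserine, lay highest, at 0.76 with LOC1 and 0.99 with LOC3, from a dim signal of 35.4, 55.6 and 65.2. With LOC3 it passed 2-fold under median scaling, at 1.17, and under quantile normalization. Gas6, the ligand that bridges Mertk to dying cells, had 147 with LPS, 31.2 with LOC1 and 30.3 with LOC3. Its differences were -2.12 and -2.17, or -1.12 and -1.10 under normexp background correction. The deposited ratio of Gas6 with LPS was -1.60, below unchallenged cells already. Lrp1, an engulfment receptor, had 4242, 1636 and 1778 and differences of -1.26 and -1.15. Its other probes were at -2.27 and -1.72 and at -0.53 and -0.08. With median scaling Lrp1 was at -0.97 with LOC3. Timd4, a receptor for phosphatidylserine, read 54.1 on the LPS array, while on both strain arrays its signal was not well above background. It was at least 3.44-fold lower under LOC1 and, by the same bound, at least 2.54-fold lower under LOC3. With normexp background correction these bounds of Timd4 were -0.63 and -0.53 on the log2 scale. Axl, the sister receptor of Mertk, was near background at 49.5, 38.1 and 47.4 and differed by -0.26 and 0.04, within 2 standard errors, the LOC3 value changing sign among the settings.

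**Figure D5:**
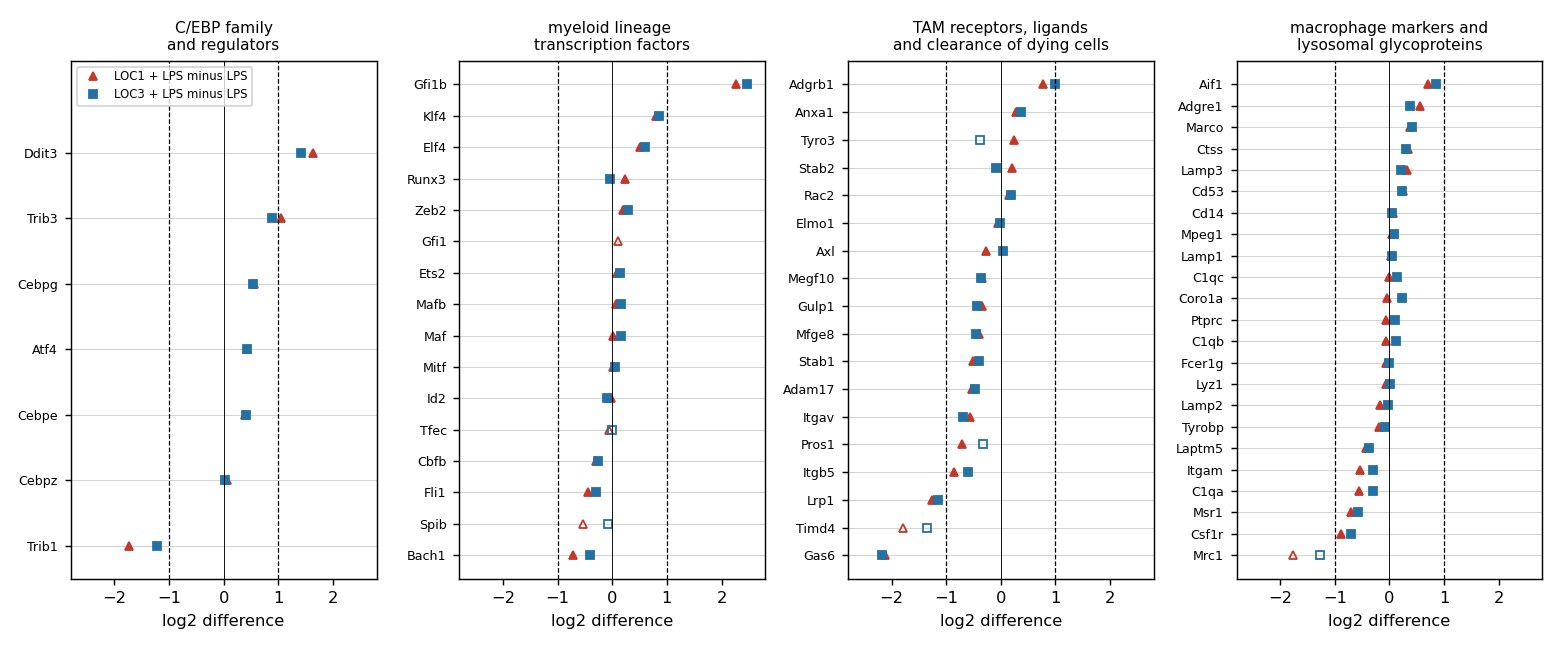
Log2 difference from LPS (horizontal axis) with LOC1 (triangles) and LOC3 (squares) for the detected genes of 4 lists around the members, each by its brightest probe, 1 array per group. Open symbols are bounds where 1 of the arrays was not well above background, and dashed lines mark 2-fold. Gas6 and Trib1 lie at the low ends of their lists with -2.12 and -1.73 with LOC1, and Gfi1b at the high end of its list with 2.27.

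The cells carried the transcripts that their label names. Of 24 macrophage markers and lysosomal glycoproteins, 22 were well above background on all 3 arrays, with a summed intensity of 1161820 on the LPS array, 1102080 under LOC1 and 1172160 under LOC3, while Cd163 was on none. Among 23 tested, 0 were 2-fold higher and 1 lower with each strain, except that Aif1 reached 1.04 with LOC3 under median scaling. The lower one was Mrc1, the mannose receptor, which read 53.3 on the LPS array and whose signal on both strain arrays was not well above background. Mrc1 was at least 3.40-fold lower under LOC1 and, likewise as a bound, at least 2.43-fold lower under LOC3, or -0.49 and -0.29 on the log2 scale after normexp. Adgre1, which encodes F4/80, had 11368 with LPS, 15572 with LOC1 and 13796 with LOC3. Its difference of 0.57 with LOC1 was past 2 standard errors and that of 0.38 with LOC3 was not. Adgre1 stood 21.8-fold above unchallenged cells with LPS in the deposited ratios. The median of the list was -0.06 with LOC1 and 0.05 with LOC3, and its bright genes held both directions. Past 2 standard errors with LOC1 were 2 higher and 6 lower, where 11.1% of all genes were higher and 13.2% lower. With LOC3 they were 2 higher and 3 lower, where 10.6% of all genes were higher and 11.3% lower. Csf1r, the M-CSF receptor, had 77805 with LPS, 38943 with LOC1 and 44637 with LOC3 and differences of -0.89 and -0.70, and Aif1 was at 0.70 and 0.85, Marco at 0.38 and 0.41 and Cd14 at 0.06 and 0.04. These 4 genes were chosen after their values were seen.

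Markers of other cells were compared in the same way. No epithelial marker of 4 was well above background on all 3 arrays. Summed intensities with LPS, LOC1 and LOC3 were 25758, 17362 and 16220 for 8 granulocyte markers, of which Camp, Csf3r and Elane were detected throughout. For 5 T cell markers they were 4447, 6152 and 6068, with Cd3d, Cd3e, Cd4 and Lck detected and Cd8a on none of the arrays. For 5 erythroid and megakaryocyte markers they were 172944, 115207 and 134870, with Hba-a1 and Pf4 detected and Gata1 and Itga2b on none. For 4 fibroblast markers they were 166, 108 and 116. Single genes carried the largest sums. Pf4, which had 172872 with LPS, differed from LPS by -0.47 under LOC1 and by -0.26 under LOC3, and Csf3r, which had 25192, by -0.47 and -0.58, while Hba-a1 was at 0.37 and 0.44. The list medians with LOC1 were -0.0075 for granulocyte, 0.08 for T cell, 0.27 for erythroid and megakaryocyte and -0.29 for fibroblast markers. With LOC3 they were -0.21, 0.08, 0.09 and -0.38 in the same order. Past 2-fold were Dcn, a fibroblast gene, at -1.10 with LOC1, and Ms4a1, a B cell gene whose signals were 29.0, 55.9 and 18.8, the last not well above background, at 1.06 with LOC1. For Ms4a1 the LOC1 to LOC3 difference was 1.5 as a bound, or 0.50 after normexp, which also took the LOC1 differences of both genes under 2-fold. The part of these cell markers in the results was not tested.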

How the data were processed

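The 3 arrays were Agilent 1-colour mouse arrays of RAW264.7 RNA, 1 per group. The authors deposited the intensity of each spot, background-corrected by Feature Extraction 12.0.3.1 per the file headers, with no scaling between arrays. They also deposited log2 ratios to unchallenged macrophages for 13135 probes, blank under 2-fold. Rebuilt from the intensities, 12920 of 12920 blank cells of probes printed once lay under 2-fold. That the reference is unchallenged cells is taken from the paper, and its array is not analysed here.

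Outlier spots were left out, 118 to 135 per array, and log2 values were set relative to the 75th percentile of each array, which was 513 to 555. A gene was compared by its brightest probe where 1 array or both read it well above background, as they did for 47.8% to 51.9% of probes. Dim signals took the lowest detected signal of that array as a floor, which makes the difference a bound. All 3 arrays lay on 1 slide, and their number limits the precision. The technical SD came from the probes printed repeatedly that were close in level, or from the nearest ones where few were close. It rested on 5 such probes for Mertk and on 242 for Cebpb.

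Python 3.11.15, numpy 2.4.6, pandas 2.3.3, matplotlib 3.10.9 and limma 3.58.1 (normexp, offset 50) were used, and the procedure was tested on simulated data. The members and lists were chosen with earlier results of these data known. Genes were named by a rule: every member, list genes past 2-fold, Trib1, Ddit3, Cebpg, Axl, Gas6, Cbfb and Adgre1, and the 5 genes nearest to the member with the largest LOC1 difference. Other genes in the text, among them Lyz1, Klf4, Adgrb1 and cell markers, were added after their values were seen. Alternatives were other scalings, normexp, other filters and thresholds, and the mean of the probes. The summed level of 1 list of cell markers is not reported here.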

Additional observations from a re-analysis of the deposited data

How the results depend on the processing

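Counts of members past 2-fold stayed at 0 in all 3 comparisons between arrays under every setting run, a 3-fold threshold included. Past 2 standard errors with LOC1 there were 2 members in place of 4 under median scaling, and between the strains 0 in place of 1 under quantile normalization. With LOC3 there were 3 in place of 2, Runx1 added, under quantile normalization and the percentile over probes detected on all arrays. With LOC1 the mean of the probes gave 5, with Lyz2 and Cd68 added and Runx1, at -0.23, lost. In the deposited ratios, 3 members in place of 5 passed a 3-fold threshold with LPS. Of 201 member differences recomputed under alternatives, 166 moved by no more than the technical SD, and 35 moved by more. Median scaling accounted for 14 of those that moved, quantile normalization and the percentile over probes detected on all arrays for 8 each, and the mean of the probes for 5. The sign changed over settings for Cebpd and Lyz2 with LOC3 and for Cebpb between the strains. The cause was not tested. Dim signals limit Cebpa, Gas6, Gfi1b, Timd4 and Mrc1, and normexp brought the differences from LPS of all of these nearer to 0. For Cebpa they became -0.09 with LOC1 and -0.11 with LOC3. No paired analysis was possible because each group held 1 array. Leaving out a replicate was not possible for the same reason.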
